A study of Mus musculus with 10 samples.

Results

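The zinc finger genes whose symbols begin with Zbtb, Zkscan or Zscan followed by a digit took up 62 of the 23284 rows of the count table, and all 62 are accounted for here. They fall into a BTB family of 38 Zbtb rows and a SCAN family of 24 rows, 9 Zkscan and 15 Zscan. RNA was sequenced from macrophages grown from the bone marrow of C57BL/6J mice in macrophage colony-stimulating factor. The cells were left untreated or were given Kdo2-lipid A, a minimal form of lipopolysaccharide that activates the receptor TLR4. The treated groups were 0.03 nM 1 h, 0.03 nM 2 h, 10 nM 1 h and 10 nM 2 h. Each of the 5 groups had 2 libraries, one from each of 2 independent experiments, and the labels name no altered gene. Untreated cells carry the label 0 h, so changes against them and effects of handling or time in the dish cannot be told apart. The design asks how transcripts change at a weak and at a strong dose of the ligand over its first hours.

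Most members encode DNA-binding proteins built from a row of C2H2 zinc fingers at one end and a protein interaction domain at the other. The BTB domain forms dimers and recruits corepressors such as NCOR, SMRT and BCOR, and several BTB factors are known for lineage choice in lymphocytes. The SCAN domain pairs SCAN proteins with one another, and Zkscan proteins are named for also carrying a KRAB domain. KRAB domains are best known for recruiting TRIM28 and, through it, a histone methyltransferase. Whether the KRAB domains of these members do so was not tested. KRAB and SCAN factors are best known as repressors, and for most of them little is known of a role in macrophages. One row is in the family by name only, since Zbtb8os, named for lying on the opposite strand to Zbtb8a, encodes archease, a helper of tRNA ligation.

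Library totals ran from 33179599 to 42167096 counts. Levels are given in CPM, counts scaled to a common library size with TMM. The 10 macrophage markers in the table were all detected and summed to 24284 to 33288 CPM. Summed markers of other cells were far lower, at 18.4 to 37.6 CPM for neutrophils, 5.13 to 9.84 CPM for B cells, 43.1 to 104 CPM for stromal or endothelial cells, 0 to 0.328 CPM for erythroid cells and 2.37 to 4.30 CPM for mast cells, with Mcpt4 at 0 throughout. The neutrophil sum was 30.7 to 37.6 CPM at 10 nM 2 h, against 18.4 to 25.6 CPM in untreated cells. The stromal or endothelial sum was 56.6 to 104 CPM at 10 nM 2 h, against 43.1 to 76.6 CPM in untreated cells. Of its genes, Kdr, the VEGF receptor of endothelial cells, had a mean of 22.9 CPM, against 4.57 CPM. Pecam1 (17.7 against 16.1 CPM), Acta2 (7.16 against 6.33 CPM), Dcn (2.18 against 1.84 CPM) and Cdh5 (0.769 against 0.502 CPM) rose less. Col1a2 was level (15.1 CPM in both). Col1a1 (11.6 against 12.4 CPM), Col3a1 (2.86 against 2.94 CPM) and Thy1 (0 against 0.072 CPM) were lower. Untreated Col1a1 was at 7.69 CPM in experiment 1 and 17.2 CPM in experiment 2. The part of these other cells in the results below was not tested. Scaling by library totals in place of TMM shifts the median log2 fold change of all 12918 tested genes to -0.38 at 10 nM 1 h and -0.59 at 10 nM 2 h, against -0.016 and -0.030 with TMM. It also lowers the share of higher genes among all called genes to 15.9% and 19.4%, against 50.3% and 48.8% with TMM, and to 48.4%, against 65.7%, at 0.03 nM 2 h. The log2 ratio of experiment 2 to experiment 1 followed exonic length in the 0.03 nM 2 h group, with a Spearman rho across genes of -0.51, against -0.0032 to 0.23 elsewhere. This describes the libraries and is no test, since the points are genes of the same libraries. In that group the median ratio was -0.24 for BTB members, against 0.0057 for all genes.

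The promoters of members that share a short motif and that fell or rose at the high dose are shown first, since they give the letters behind the descriptions at the end. RefSeq promoters on GRCm38.p6, from 250 bases before to 50 bases after each start, were matched for 43 of the 50 tested members. Each is printed on its own strand from 5′ to 3′, and capitals mark a match to CCGGAAG (ETS type), GGGNNTTTC (NF-kB type), TGACTCA (AP-1), TGACGTCA (CRE) or CACGTG (E-box) on either strand. Zbtb6 and Zbtb26 are neighbours on one strand, and both promoters hold the ETS-type and NF-kB-type letters, as does that of Zscan12. Zkscan1 holds 3 ETS-type matches and 1 of AP-1 type, and its neighbour Zscan21 has 1 ETS-type match. A CRE occurs in the promoter of Zbtb11, which was higher at 10 nM, and in that of Zscan20, which was lower. Zbtb11 also holds an ETS-type match and an E-box, and Zbtb46, which was higher, has an AP-1 match.
Zbtb6 (chr2:37430870-37431169, minus strand): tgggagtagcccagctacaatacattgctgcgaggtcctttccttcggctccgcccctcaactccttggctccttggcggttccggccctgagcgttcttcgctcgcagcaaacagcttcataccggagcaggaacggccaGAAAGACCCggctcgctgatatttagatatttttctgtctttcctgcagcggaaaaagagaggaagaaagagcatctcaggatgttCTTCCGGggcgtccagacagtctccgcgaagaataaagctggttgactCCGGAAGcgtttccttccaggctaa
Zbtb26 (chr2:37443123-37443422, minus strand): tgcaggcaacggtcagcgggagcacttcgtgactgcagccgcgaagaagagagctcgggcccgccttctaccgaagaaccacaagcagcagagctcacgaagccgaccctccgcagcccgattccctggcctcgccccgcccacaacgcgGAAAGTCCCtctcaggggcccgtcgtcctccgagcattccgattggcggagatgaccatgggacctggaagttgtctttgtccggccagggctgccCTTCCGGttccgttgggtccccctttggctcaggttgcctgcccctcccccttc
Zscan12 (chr13:21362570-21362869, plus strand): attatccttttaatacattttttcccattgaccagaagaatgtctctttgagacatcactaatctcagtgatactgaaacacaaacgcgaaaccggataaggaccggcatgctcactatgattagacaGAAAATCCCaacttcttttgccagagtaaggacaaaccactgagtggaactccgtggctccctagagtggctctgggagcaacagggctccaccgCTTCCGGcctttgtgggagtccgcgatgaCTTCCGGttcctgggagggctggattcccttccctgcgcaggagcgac
Zkscan1 (chr5:138084834-138085133, plus strand): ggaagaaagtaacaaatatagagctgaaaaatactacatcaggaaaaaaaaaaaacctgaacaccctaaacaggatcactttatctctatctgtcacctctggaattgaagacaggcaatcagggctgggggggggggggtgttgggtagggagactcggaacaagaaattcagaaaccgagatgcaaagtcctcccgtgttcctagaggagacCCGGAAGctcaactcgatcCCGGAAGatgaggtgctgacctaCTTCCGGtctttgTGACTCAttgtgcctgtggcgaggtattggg
Zscan21 (chr5:138116655-138116954, plus strand): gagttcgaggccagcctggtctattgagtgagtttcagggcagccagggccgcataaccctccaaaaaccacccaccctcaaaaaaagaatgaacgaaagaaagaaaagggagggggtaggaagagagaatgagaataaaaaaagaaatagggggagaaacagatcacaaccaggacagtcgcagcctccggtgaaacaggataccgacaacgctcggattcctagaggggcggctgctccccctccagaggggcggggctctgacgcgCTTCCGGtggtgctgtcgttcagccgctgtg
Zbtb11 (chr16:55973554-55973853, plus strand): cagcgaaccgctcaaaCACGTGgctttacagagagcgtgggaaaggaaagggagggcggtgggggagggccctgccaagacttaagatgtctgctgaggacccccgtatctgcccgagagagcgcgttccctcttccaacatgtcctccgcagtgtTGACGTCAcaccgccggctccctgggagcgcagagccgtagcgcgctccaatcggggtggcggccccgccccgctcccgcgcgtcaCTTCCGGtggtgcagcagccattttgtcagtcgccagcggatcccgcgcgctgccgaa
Zscan20 (chr4:128610049-128610348, minus strand): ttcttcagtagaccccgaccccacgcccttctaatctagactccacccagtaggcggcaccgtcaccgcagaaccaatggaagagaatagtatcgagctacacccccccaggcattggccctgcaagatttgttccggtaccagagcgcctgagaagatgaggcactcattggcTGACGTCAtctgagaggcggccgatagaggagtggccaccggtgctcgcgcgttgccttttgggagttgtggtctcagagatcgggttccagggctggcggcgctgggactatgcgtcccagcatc
Zbtb46 (chr2:181424339-181424638, minus strand): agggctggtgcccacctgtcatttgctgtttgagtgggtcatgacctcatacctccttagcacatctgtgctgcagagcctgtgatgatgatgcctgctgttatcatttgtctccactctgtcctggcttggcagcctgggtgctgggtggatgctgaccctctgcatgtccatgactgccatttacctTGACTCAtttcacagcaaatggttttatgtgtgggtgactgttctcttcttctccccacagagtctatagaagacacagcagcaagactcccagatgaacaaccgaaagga

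Over the 10 libraries, 36 of 38 BTB rows and 14 of 24 SCAN rows were expressed well enough to test. Among the other BTB rows, Zbtb8b had no count in any library and Zbtb7c reached at most 4 counts. The tested SCAN rows were 7 Zkscan and 7 Zscan. Of the remaining SCAN rows, 9 had no count in any library and 1 (Zscan10, a factor of embryonic stem cells) reached at most 2 counts. The silent SCAN rows were Zkscan2, Zkscan16, Zscan5b and the 6 copies of the Zscan4 cluster (Zscan4a to Zscan4f), genes of the preimplantation embryo. A count of 0 allows a level of up to 0.103 CPM (3 counts of the smallest scaled library), a limit that covers counting error only. Reads that match several near-identical Zscan4 copies may not have been counted, since their treatment is not given in the sources used here. Of the 50 tested members, 46 reached 10 counts at the median library size in both libraries of every group, and the other 4 were Zbtb32, Zkscan4, Zscan2 and Zscan18.

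Per kilobase of exon, the level of the tested BTB members in untreated cells had a median of 3.80 CPM per kb and that of the tested SCAN members 2.69 CPM per kb, against 6.88 CPM per kb for all tested genes. Zbtb7a, a repressor best known for silencing fetal globin genes, had the highest level per length at 30.7 CPM per kb, followed by Zbtb7b at 23.5, Zbtb8os at 17.8 and Zbtb22 at 15.4 CPM per kb. The leading SCAN member was Zkscan3, known from human cells as a repressor of autophagy genes, at 11.5 CPM per kb. At the other end stood Zbtb46 and Zbtb32, at 0.0790 and 0.0406 CPM per kb.

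At 10 nM most of the SCAN family fell. In the BTB family the share of lower members was above that of all genes, and the share of higher members was near it. A member counts as called where edgeR's quasi-likelihood test, adjusted by Benjamini-Hochberg over all tested genes, gave a value below 0.05. After 1 h at 10 nM, 11 of 14 SCAN members were lower than in untreated cells and 1 was higher, and 17 of 36 BTB members were lower and 8 higher, where 18.3% of all tested genes were lower and 18.5% higher. After 2 h, 11 SCAN members were lower and 2 higher, and 17 BTB members were lower and 10 higher, where 30.1% of all genes were lower and 28.6% higher. The share of lower members was thus 78.6% in the SCAN family and 47.2% in the BTB family at both times. The share of higher BTB members was 22.2% at 1 h and 27.8% at 2 h, near the 18.5% and 28.6% of all genes. No test was made of the difference between the families. Zbtb32 passed the filter on low counts only through the 10 nM groups, and Zkscan4 and Zscan18 only through other groups. Without these 3, 10 of 12 SCAN members were lower at each time, and 7 of 35 BTB members were higher at 1 h and 9 at 2 h. The 8 higher BTB members at 1 h became 5 when any 1 of the 8 libraries outside 0.03 nM 2 h was left out.

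Median log2 fold changes at 10 nM were -1.43 at 1 h and -1.55 at 2 h for the SCAN members and -0.36 and -0.27 for the BTB members, against -0.016 and -0.030 for all genes. Scaling by library totals gives 12 lower and 1 higher SCAN member at 1 h, 13 lower and 0 higher at 2 h, 24 lower and 5 higher BTB members at 1 h, and 23 lower and 6 higher at 2 h. With that scaling the medians are -1.79 and -2.11 for the SCAN members and -0.73 and -0.83 for the BTB members, against -0.38 and -0.59 for all genes. Among all genes called with it, 15.9% and 19.4% were higher. The shares of all tested genes called lower or higher with that scaling are not given, here or for the comparisons and lists below. Counts under it therefore cannot be set against such a share. The summed level of the SCAN rows in experiments 1 and 2 was 205 and 200.1 CPM in untreated cells, 193 and 193 CPM at 0.03 nM 1 h and 204 and 184 CPM at 0.03 nM 2 h. It was 121 and 119.5 CPM at 10 nM 1 h and 124 and 122 CPM at 10 nM 2 h. Every 10 nM library was lower than every other library in this sum. The BTB rows without Zbtb8os summed to 840 and 831 CPM in untreated cells, 831 and 839 CPM at 0.03 nM 1 h and 855 and 751 CPM at 0.03 nM 2 h. They summed to 724 and 736 CPM at 10 nM 1 h, below every other library, and to 827 and 844 CPM at 10 nM 2 h, within the range of the other groups. The 322 tested rows whose symbols begin with Zfp had median log2 fold changes of -1.1 at 1 h and -1.0 at 2 h. Of them, 66.5% and 68.3% were called lower. These zinc finger rows include some BTB and SCAN genes named further below, such as Zfp161 and Zfp263. A lower level in these bulk libraries can mean less of the transcript per cell or fewer cells that make it, and these cannot be told apart.

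**Figure D1:**
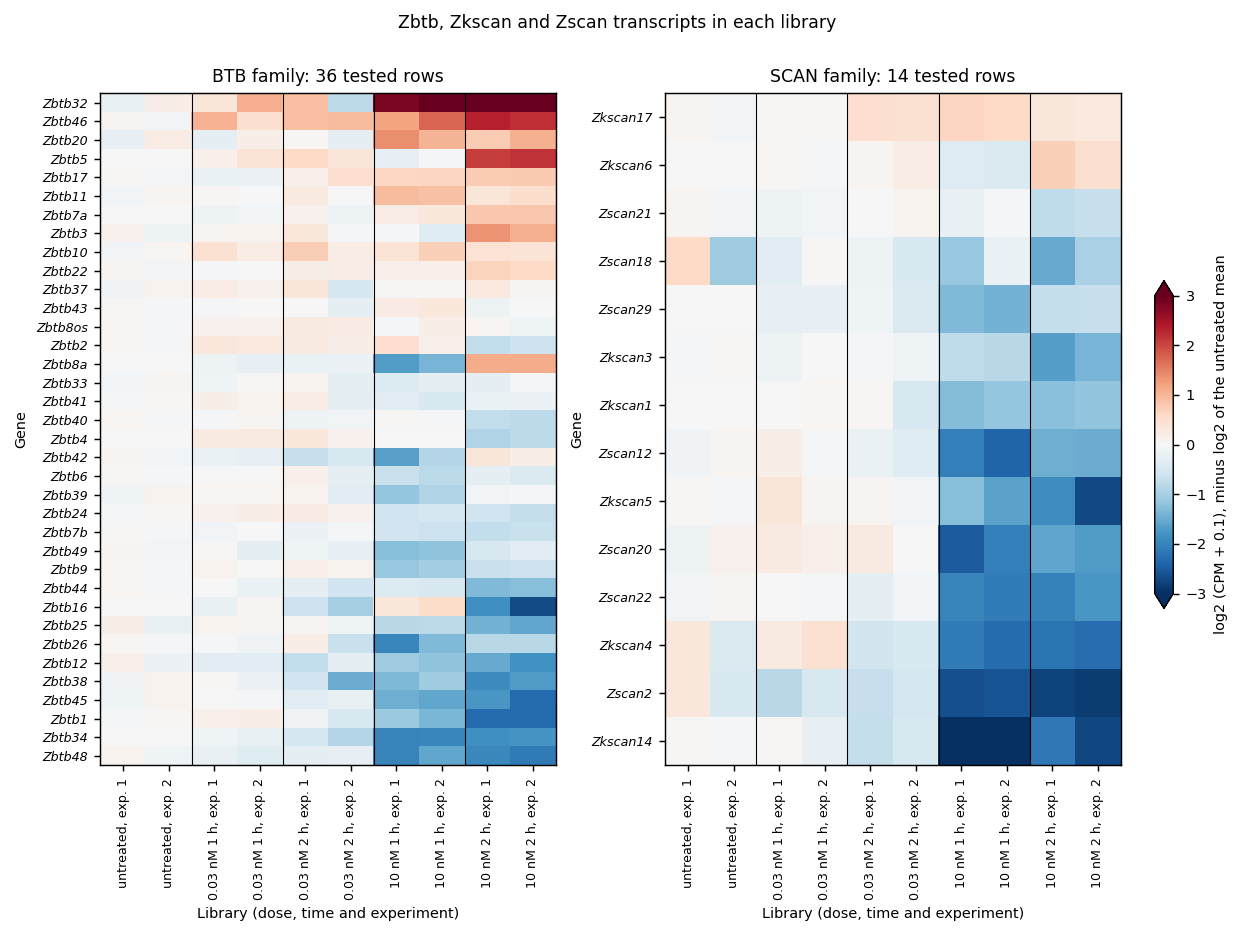
Log2 level (CPM + 0.1) of each tested member in each of the 10 libraries (columns, grouped by dose and time) minus the log2 of its untreated mean, with BTB members on the left and SCAN members on the right, ordered by mean change at 10 nM and the colour capped at 3 and -3. Most SCAN rows turn blue in all 4 libraries at 10 nM, while BTB rows split between red and blue.

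**Figure D2:**
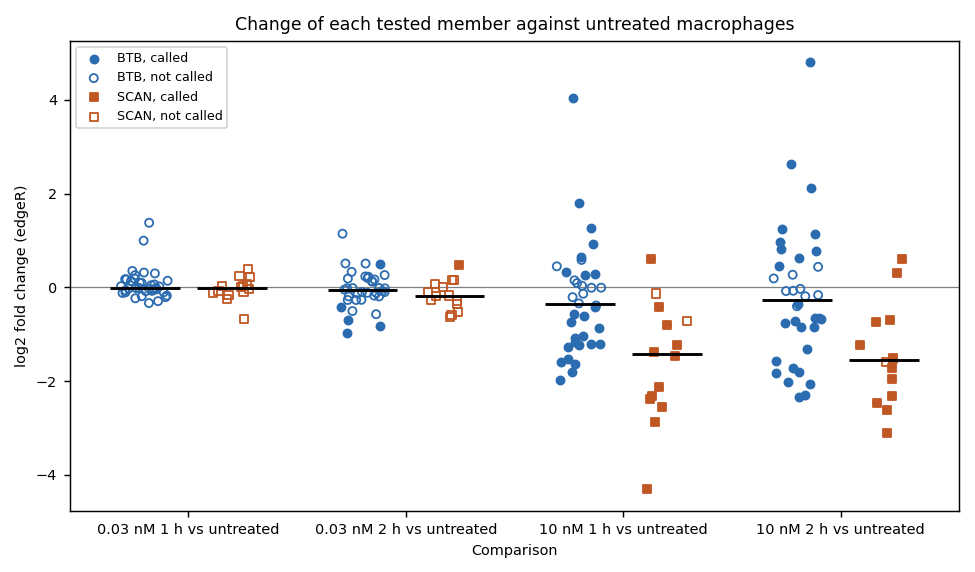
Log2 fold change against untreated cells (edgeR, vertical axis) of the 36 BTB (circles) and 14 SCAN (squares) tested members in the 4 comparisons, filled where called and with a black bar at each family's median. At 10 nM the SCAN median lies at -1.43 and -1.55 and the BTB median at -0.36 and -0.27.

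Among the BTB members known from lymphocytes and dendritic cells, Zbtb46 rose and Zbtb1 and Zbtb7b fell at 10 nM, and Zbtb32 was detected mainly there. Zbtb16 fell at 10 nM 2 h but not at 10 nM 1 h. Zbtb32 (chromosome 7, 31374700 to 31377961 on mm9, as for all genes below), a repressor that restrains lymphocyte proliferation, had 0.0476 and 0.0964 CPM in untreated cells, 0.121 and 0.264 CPM at 0.03 nM 1 h and 0.219 and 0 CPM at 0.03 nM 2 h. It had 1.13 and 1.32 CPM at 10 nM 1 h and 1.64 and 2.56 CPM at 10 nM 2 h (pairs of values give experiment 1, then experiment 2). All 4 libraries at 10 nM were above the other 6, which held 0 to 11 counts each. It reached 10 counts at the median library size in both libraries of a group only at 10 nM, so it was tested only because it is high there. Its log2 fold changes, 4.03 ± 0.80 at 1 h and 4.81 ± 0.78 at 2 h, are therefore a description, on a base of 2 and 4 counts in the untreated libraries. Zbtb46 (chromosome 2, 181125591 to 181194131), a marker of classical dendritic cells, had 0.286 and 0.241 CPM in untreated cells, 0.651 and 0.407 CPM at 0.03 nM 1 h and 0.575 and 0.598 CPM at 0.03 nM 2 h. The 10 nM libraries held 0.723 and 1.11 CPM at 1 h and 1.74 and 1.57 CPM at 2 h. Its untreated libraries were the lowest and its 10 nM 2 h libraries the highest, with a log2 fold change of 1.79 ± 0.43 at 1 h (adjusted p = 0.00622) and 2.64 ± 0.42 at 2 h (adjusted p = 0.000178). Its 1 h change was 1.44 and not called when the experiment 2 library at 10 nM 1 h was left out (adjusted p = 0.0673).

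The summed level of dendritic cell markers was also higher at 10 nM. The other 6 genes of that list summed to 16.5 to 17 CPM at 10 nM 2 h and 13.2 to 16.1 CPM at 10 nM 1 h, against 8.17 to 11.4 CPM in untreated cells. Clec9a had 4.47 and 4.79 CPM in the 10 nM 2 h libraries, against 2.05 and 1.16 CPM in the untreated ones. Means at 10 nM 2 h and in untreated cells were 6.40 against 3.82 CPM for Siglech, 2.74 against 1.42 CPM for Flt3 and 0.540 against 0.156 CPM for Xcr1. Ccr7 was slightly lower, at 2.40 against 2.73 CPM, and Itgae was near 0 in both (0.0513 and 0.0362 CPM). None of the 6 was at 0 in all libraries. Their part in the change of Zbtb46 was not tested. In the T and NK cell list, the 5 genes that are not members summed to 32.3 to 39 CPM at 10 nM 2 h, against 32.6 to 34.1 CPM in untreated cells. Nearly all of that sum was Cd4, and the defining genes Cd3e, Cd3d, Cd8a and Ncr1 stayed at 0 to 0.164 CPM in every library.

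Zbtb1 (chromosome 12, 77471253 to 77489734), which is required for lymphoid development, had 37 and 39.2 CPM in untreated cells, 42.1 and 43.9 CPM at 0.03 nM 1 h and 35.5 and 27.9 CPM at 0.03 nM 2 h. With 10 nM, levels were 17.6 and 14.7 CPM at 1 h and 7.45 and 7.63 CPM at 2 h. Its level was lower at 10 nM 2 h than at 10 nM 1 h, and all 4 of these libraries were below the other 6. Its log2 fold change was -1.24 ± 0.12 at 1 h (adjusted p = 7.44e-06) and -2.34 ± 0.13 at 2 h (adjusted p = 2.53e-08). The 2 h level was 5.05-fold lower than in untreated cells. Zbtb16 (chromosome 9, 48462402 to 48644050), the factor that gives natural killer T cells their innate-like state, had 4.43 and 4.51 CPM in untreated cells, 3.83 and 4.72 CPM at 0.03 nM 1 h and 2.87 and 2.18 CPM at 0.03 nM 2 h. Levels were 5.64 and 6.56 CPM at 10 nM 1 h and 1.18 and 0.616 CPM at 10 nM 2 h. Both 10 nM 1 h libraries were the highest of the 10 and both 10 nM 2 h libraries the lowest. Its change was 0.45 ± 0.22 at 10 nM 1 h, which was not called (adjusted p = 0.147), and -2.30 ± 0.28 at 10 nM 2 h (adjusted p = 1.78e-05). When only the groups compared were fitted, its 10 nM 1 h change was 0.46 and was called higher (adjusted p = 0.0301). Zbtb7b, the factor of the CD4 T cell lineage, had 89.1 and 84.3 CPM in untreated cells, 81.6 and 86.3 CPM at 0.03 nM 1 h and 76.7 and 85.1 CPM at 0.03 nM 2 h. At the 10 nM dose, there were 58.4 and 55.1 CPM at 1 h and 51.6 and 54.5 CPM at 2 h. The 4 libraries at 10 nM lay below the rest, with log2 fold changes of -0.61 ± 0.08 at 1 h (adjusted p = 8.1e-05) and -0.71 ± 0.08 at 2 h (adjusted p = 1.16e-05).

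Zbtb5 and Zbtb8a rose late. Zbtb5 (chromosome 4, 45004115 to 45025284), described in human cells as a repressor of the cell cycle inhibitor gene CDKN1A, had 16.1 and 16.2 CPM in untreated cells, 18.1 and 21.7 CPM at 0.03 nM 1 h and 24.5 and 21 CPM at 0.03 nM 2 h. At 10 nM it had 13.7 and 15.8 CPM at 1 h and 68 and 73.3 CPM at 2 h. Both 10 nM 2 h libraries stood far above the other 8, while both 10 nM 1 h libraries were the lowest. The change was 2.13 ± 0.12 at 10 nM 2 h (adjusted p = 2.03e-08), a 4.37-fold higher level, and -0.14 ± 0.12 at 10 nM 1 h (adjusted p = 0.423). Zbtb8a (chromosome 4, 129030876 to 129055272) had 3.95 and 3.91 CPM in untreated cells, 3.52 and 3.28 CPM at 0.03 nM 1 h and 3.42 and 3.44 CPM at 0.03 nM 2 h. It had 1.16 and 1.43 CPM at 10 nM 1 h and 8.63 and 8.58 CPM at 10 nM 2 h. It was lowest in both libraries at 10 nM 1 h and highest in both at 10 nM 2 h, and both changes were called, at -1.60 ± 0.18 (adjusted p = 2.07e-05) and 1.13 ± 0.16 (adjusted p = 5.57e-05). Zbtb8os, which lies 6602 bases from Zbtb8a on the other strand, had 12.3 and 11.3 CPM in untreated cells, 12.9 and 13 CPM at 0.03 nM 1 h and 14.2 and 14 CPM at 0.03 nM 2 h. The 10 nM libraries held 11.4 and 13.6 CPM at 1 h and 12.2 and 10.8 CPM at 2 h. Its 10 nM and untreated libraries overlapped, and it was not called against untreated cells. Under scaling by totals it was called lower at 10 nM 2 h, at -0.59 (adjusted p = 0.000927). Zbtb3 was also called higher at 10 nM 2 h alone (1.25 ± 0.21), as was Zbtb22 (0.64 ± 0.08), and Zbtb42 fell at 1 h (-1.22 ± 0.20) and was not called at 2 h (0.27 ± 0.19). The change of Zbtb22 at 2 h was 0.08 and not called when libraries were scaled by their totals.

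**Figure D3:**
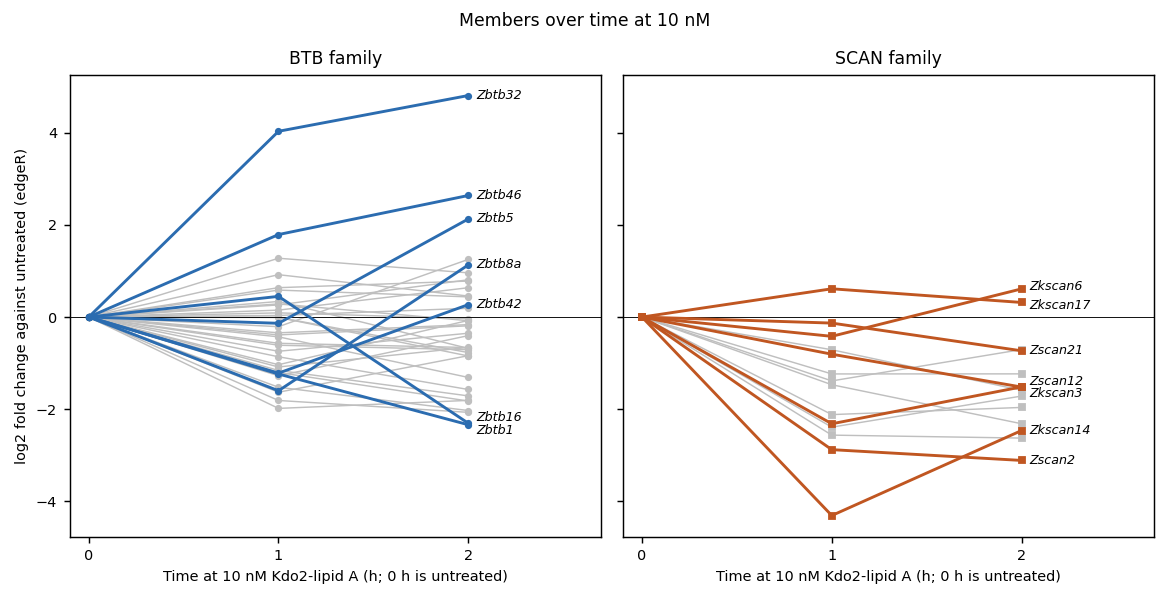
Log2 fold change against untreated cells (edgeR) of each tested member at 10 nM, from 0 h (untreated, set to 0) to 1 h and 2 h, for the BTB family (left) and the SCAN family (right), with named members in colour and the others in grey. Zbtb5 and Zbtb8a climb and Zbtb16 drops between 1 h and 2 h, and Zkscan14 has the lowest point of all at -4.31.

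Zbtb7a, Zbtb11, Zbtb17 and Zbtb20 rose at both times at 10 nM. Zbtb7a (chromosome 10, 80599016 to 80614402) had 167 and 163 CPM in untreated cells, 149.6 and 157 CPM at 0.03 nM 1 h and 179 and 147 CPM at 0.03 nM 2 h. With 10 nM, levels were 192 and 204 CPM at 1 h and 288 and 290.5 CPM at 2 h. The 10 nM 2 h libraries were the highest and the 10 nM 1 h libraries next, with log2 fold changes of 0.81 ± 0.09 at 2 h (adjusted p = 1.05e-05) and 0.26 ± 0.09 at 1 h (adjusted p = 0.0405). The 1 h call was lost without any one of 8 libraries, at adjusted p up to 0.226, and under scaling by totals the estimate was -0.10. Zbtb17 (Miz-1), a DNA-binding partner of MYC, was higher at both times (0.64 ± 0.11 and 0.78 ± 0.11), with a 2 h value of 0.22 and no call under scaling by totals. So was Zbtb11 (0.92 ± 0.11 and 0.46 ± 0.11), whose 2 h value turns to -0.10 under scaling by totals. Of the exonic length of Zbtb11, 11.4% overlaps the opposite-strand gene 2310061J03Rik, and of Zbtb17, 1.41% overlaps Spen. Whether reads were counted by strand is not given in the sources used here, so reads of such pairs may be mixed. Zbtb20, which in mouse macrophages is known to promote TLR responses by repressing the gene of the NF-kB inhibitor IkBa, changed by 1.28 ± 0.28 at 1 h (adjusted p = 0.00367) and 0.96 ± 0.29 at 2 h (adjusted p = 0.0128). Its 2 h call was lost without the experiment 1 untreated library (0.73, adjusted p = 0.109), without the experiment 2 library at 10 nM 2 h (0.80, adjusted p = 0.0888) and under scaling by totals (0.40, adjusted p = 0.221).

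Of the BTB factors known to bind methylated DNA or telomeres, Zbtb38, Zbtb4 and Zbtb48 fell at 10 nM. Whether Zbtb33 was called depended on the fit. Zbtb38 (chromosome 9, 96585842 to 96632094), a methyl-CpG-binding protein, had 22.1 and 25.4 CPM in untreated cells, 24.2 and 20.8 CPM at 0.03 nM 1 h and 16 and 8.35 CPM at 0.03 nM 2 h. Levels were 9.28 and 11.3 CPM at 10 nM 1 h and 6.24 and 7.18 CPM at 10 nM 2 h. Both 10 nM 2 h libraries were the lowest, and the experiment 2 library at 0.03 nM 2 h was below those of 10 nM 1 h. Zbtb38 shares 2.47% of its exonic length with the same-strand gene E030011O05Rik. Its change was -1.20 ± 0.26 at 1 h (adjusted p = 0.00581) and -1.82 ± 0.27 at 2 h (adjusted p = 0.000356). Zbtb4, which also binds methylated DNA, changed by -0.01 ± 0.08 at 1 h (not called) and -0.84 ± 0.08 at 2 h (called), and Zbtb33 (Kaiso), of the same group, was called at neither time, at -0.34 ± 0.13 and -0.16 ± 0.13. Under scaling by totals Zbtb4 was also lower at 1 h (-0.37) and Zbtb33 at both times (-0.71 and -0.72). With TMM, the 1 h change of Zbtb33 had an adjusted p of 0.0594 in the main edgeR fit. It was called lower without the filter on low counts (adjusted p = 0.0344) and when only the groups compared were fitted (adjusted p = 0.00535). Zbtb48 (chromosome 4, 151393885 to 151401780), the telomere-binding protein TZAP, had 8.53 and 7.21 CPM in untreated cells, 6.70 and 6.13 CPM at 0.03 nM 1 h and 6.38 and 6.67 CPM at 0.03 nM 2 h. At the 10 nM dose, there were 1.88 and 2.59 CPM at 1 h and 2.00 and 1.74 CPM at 2 h. All 4 libraries at 10 nM were below the other 6, at -1.81 ± 0.18 (1 h, adjusted p = 9.35e-06) and -2.07 ± 0.19 (2 h, adjusted p = 2e-06). Zbtb24, whose human counterpart is mutated in an immunodeficiency with loss of centromeric DNA methylation, was called lower at both times (-0.57 ± 0.11 and -0.66 ± 0.11).

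Further BTB members with less known roles were called lower at both times at 10 nM. Zbtb34 (chromosome 2, 33261628 to 33286844) had 51.1 and 50.4 CPM in untreated cells, 46.2 and 43.6 CPM at 0.03 nM 1 h and 35.4 and 27.6 CPM at 0.03 nM 2 h. At 10 nM it had 12.6 and 13.1 CPM at 1 h and 14.2 and 14.8 CPM at 2 h. Its level was lower at 10 nM than at 0.03 nM at either time, and the 4 libraries at 10 nM were below the other 6, at -1.98 ± 0.11 (1 h, adjusted p = 6e-08) and -1.81 ± 0.11 (2 h, adjusted p = 6.2e-08). Zbtb45 (chromosome 7, 13591015 to 13595149) had 14.6 and 17.2 CPM in untreated cells, 15.7 and 15.5 CPM at 0.03 nM 1 h and 12.8 and 13.6 CPM at 0.03 nM 2 h. It had 5.73 and 5.34 CPM at 10 nM 1 h and 4.69 and 3.08 CPM at 10 nM 2 h. The 10 nM libraries were below all others, with log2 fold changes of -1.52 ± 0.16 at 1 h and -2.03 ± 0.17 at 2 h (adjusted p = 1.22e-05 and 7.63e-07). Zbtb12 (chromosome 17, 35031504 to 35033789) had 6.26 and 4.92 CPM in untreated cells, 4.41 and 4.46 CPM at 0.03 nM 1 h and 3.29 and 4.57 CPM at 0.03 nM 2 h. The 10 nM libraries held 2.63 and 2.38 CPM at 1 h and 1.90 and 1.50 CPM at 2 h. It too was lowest in the 4 libraries at 10 nM, with log2 fold changes of -1.16 ± 0.21 at 1 h and -1.71 ± 0.23 at 2 h (adjusted p = 0.00107 and 4.01e-05). Zbtb26 (chromosome 2, 37287688 to 37298641), whose promoter is printed above, had 10.9 and 9.93 CPM in untreated cells, 10.0 and 9.68 CPM at 0.03 nM 1 h and 12 and 6.48 CPM at 0.03 nM 2 h. With 10 nM, levels were 2.60 and 4.10 CPM at 1 h and 5.84 and 5.81 CPM at 2 h. It was lowest at 10 nM 1 h, at -1.63 ± 0.28 (adjusted p = 0.00106). The 10 nM 2 h change of -0.84 ± 0.27 (adjusted p = 0.0215) was lost without any 1 of the 4 libraries compared (adjusted p = 0.0502 to 0.0924).

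The largest fall in either family was that of Zkscan14. This gene (chromosome 5, 145955815 to 145962751) had 10.5 and 9.81 CPM in untreated cells, 10.5 and 8.50 CPM at 0.03 nM 1 h and 6.13 and 7.41 CPM at 0.03 nM 2 h. Levels were 0.376 and 0.634 CPM at 10 nM 1 h and 2.23 and 1.44 CPM at 10 nM 2 h. Both 10 nM 1 h libraries, with 13 and 24 counts, were the lowest, and both 10 nM 2 h libraries came next. The level was 19.8-fold lower at 1 h, a log2 fold change of -4.31 ± 0.27 (adjusted p = 1.31e-07), and 5.51-fold lower at 2 h, -2.46 ± 0.23 (adjusted p = 1.94e-06). Its head-to-head neighbour Zkscan5 (chromosome 5, 145965428 to 145982619) lies 2676 bases away on the other strand and had 6.98 and 6.68 CPM in untreated cells, 8.84 and 7.26 CPM at 0.03 nM 1 h and 7.23 and 6.43 CPM at 0.03 nM 2 h. At the 10 nM dose, there were 2.78 and 2.17 CPM at 1 h and 1.77 and 0.957 CPM at 2 h. Here the 10 nM 2 h libraries were the lowest, and the change was -1.47 ± 0.22 at 1 h (adjusted p = 0.000263) and -2.31 ± 0.25 at 2 h (adjusted p = 6.44e-06).

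On chromosome 13, all 3 SCAN members fell at both times at 10 nM. Zkscan3 (chromosome 13, 21478873 to 21494624) had 29.1 and 31 CPM in untreated cells, 26.8 and 30.4 CPM at 0.03 nM 1 h and 28.7 and 27.5 CPM at 0.03 nM 2 h. At 10 nM it had 17.7 and 16.7 CPM at 1 h and 9.52 and 11.5 CPM at 2 h. Its 4 libraries at 10 nM were below the other 6, with those of 2 h the lowest. The log2 fold change was -0.81 ± 0.11 at 1 h and -1.52 ± 0.11 at 2 h (adjusted p = 8.46e-05 and 2.51e-07). Zscan12 (chromosome 13, 21454689 to 21464171), 14701 bases from Zkscan3, had 4.98 and 5.67 CPM in untreated cells, 6.00 and 5.10 CPM at 0.03 nM 1 h and 4.63 and 4.11 CPM at 0.03 nM 2 h. It had 1.21 and 0.925 CPM at 10 nM 1 h and 1.87 and 1.85 CPM at 10 nM 2 h. Its lowest libraries were those of 10 nM 1 h, with changes of -2.32 ± 0.21 at 1 h and -1.52 ± 0.20 at 2 h (adjusted p = 2.93e-06 and 3.3e-05). Zkscan4 (chromosome 13, 21570718 to 21577374) was near the limit of the filter and had 2.00 and 1.13 CPM in untreated cells, 1.90 and 2.20 CPM at 0.03 nM 1 h and 1.04 and 1.12 CPM at 0.03 nM 2 h. The 10 nM libraries held 0.289 and 0.238 CPM at 1 h and 0.263 and 0.239 CPM at 2 h. In counts, these libraries held 7 to 10 each and were below all others, which held 38 to 92. Zkscan4 was tested only through the groups in which it is high, so its changes are a description. They were -2.56 ± 0.40 at 1 h and -2.63 ± 0.42 at 2 h.

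Of the neighbours Zkscan1 and Zscan21 on chromosome 5, 9082 bases apart on one strand, Zkscan1 was called lower at both times and Zscan21 at 2 h. Zkscan1 (chromosome 5, 138526312 to 138549050) had 27.9 and 28.4 CPM in untreated cells, 28.5 and 29.3 CPM at 0.03 nM 1 h and 29.6 and 20.1 CPM at 0.03 nM 2 h. With 10 nM, levels were 11.4 and 12.5 CPM at 1 h and 11.7 and 12.2 CPM at 2 h. All 4 libraries at 10 nM were below the other 6 at an even level, with log2 fold changes of -1.23 ± 0.15 and -1.23 ± 0.15 (adjusted p = 4.16e-05 and 2.14e-05). Zscan21 (chromosome 5, 138558133 to 138575487) had 17.1 and 15.3 CPM in untreated cells, 14.7 and 15.2 CPM at 0.03 nM 1 h and 16.5 and 17.5 CPM at 0.03 nM 2 h. Levels were 13.9 and 15.8 CPM at 10 nM 1 h and 9.55 and 9.99 CPM at 10 nM 2 h. Its 10 nM 1 h libraries overlapped those of untreated cells (-0.13 ± 0.11, adjusted p = 0.38), and its 10 nM 2 h libraries were the lowest (-0.73 ± 0.11, adjusted p = 0.00011). Under scaling by totals Zscan21 was also called lower at 10 nM 1 h, at -0.50 (adjusted p = 0.00172).

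The other SCAN members that fell have no member within 50000 bases. Zscan2 (chromosome 7, 88006994 to 88021399) had 3.91 and 2.22 CPM in untreated cells, 1.66 and 2.18 CPM at 0.03 nM 1 h and 1.86 and 2.08 CPM at 0.03 nM 2 h. At the 10 nM dose, there were 0.405 and 0.423 CPM at 1 h and 0.361 and 0.342 CPM at 2 h. All 4 libraries at 10 nM, with 10 to 16 counts each, were below the rest, with log2 fold changes of -2.88 ± 0.35 and -3.11 ± 0.37 (adjusted p = 4.36e-05 and 1.68e-05). Zscan20 (chromosome 4, 128260783 to 128287342) had 3.53 and 4.29 CPM in untreated cells, 4.72 and 4.38 CPM at 0.03 nM 1 h and 4.74 and 3.95 CPM at 0.03 nM 2 h. At 10 nM it had 0.607 and 0.872 CPM at 1 h and 1.25 and 1.13 CPM at 2 h. It was lowest at 10 nM 1 h, at -2.39 ± 0.24, and at -1.71 ± 0.23 by 2 h (adjusted p = 8.4e-06 and 4.68e-05). Zscan22 (chromosome 7, 13483164 to 13493588) had 4.84 and 5.50 CPM in untreated cells, 5.18 and 4.94 CPM at 0.03 nM 1 h and 4.30 and 4.85 CPM at 0.03 nM 2 h. It had 1.24 and 1.14 CPM at 10 nM 1 h and 1.18 and 1.47 CPM at 10 nM 2 h. Here too the 10 nM libraries lay below all others, with no order between 1 h and 2 h (-2.12 ± 0.20 and -1.96 ± 0.20, adjusted p = 3.97e-06 and 3.84e-06). Zscan29 (chromosome 2, 120983163 to 120996885) had 55.2 and 54.4 CPM in untreated cells, 46 and 46.2 CPM at 0.03 nM 1 h and 50.3 and 40.4 CPM at 0.03 nM 2 h. The 10 nM libraries held 21.7 and 20.3 CPM at 1 h and 33.5 and 33.7 CPM at 2 h. Its lowest libraries were those of 10 nM 1 h, at -1.39 ± 0.10, with 10 nM 2 h next, at -0.70 ± 0.10 (adjusted p = 5.3e-07 and 6.68e-05).

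Zkscan17 was the SCAN member that rose at both times. Known in mouse as Nizp1, a repressor that binds the histone methyltransferase NSD1, it (chromosome 11, 59299023 to 59320142) had 27.8 and 25.1 CPM in untreated cells, 27.2 and 27.2 CPM at 0.03 nM 1 h and 37.3 and 36.4 CPM at 0.03 nM 2 h. With 10 nM, levels were 41.2 and 39.8 CPM at 1 h and 33.8 and 32.2 CPM at 2 h. Both 10 nM 1 h libraries were the highest, and the 0.03 nM 2 h and 10 nM 2 h libraries were above those of untreated cells and 0.03 nM 1 h. The change was 0.61 ± 0.08 at 10 nM 1 h (adjusted p = 9.38e-05) and 0.32 ± 0.08 at 10 nM 2 h (adjusted p = 0.00604), but -0.24 at 10 nM 2 h under scaling by totals, where it was called lower. Without the experiment 2 untreated library the 2 h change was 0.24 and not called (adjusted p = 0.0789). It shares 15.1% of its exonic length with the opposite-strand gene 4933439C10Rik. Zkscan6 was called lower at 10 nM 1 h (-0.42 ± 0.12) and higher at 10 nM 2 h (0.61 ± 0.12), where scaling by totals gives 0.06 and no call. Its 1 h call ended without any 1 of the 4 libraries compared (adjusted p = 0.0621 to 0.102). Zscan18 was called at neither time (-0.71 ± 0.67 and -1.59 ± 0.76).

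**Figure D4:**
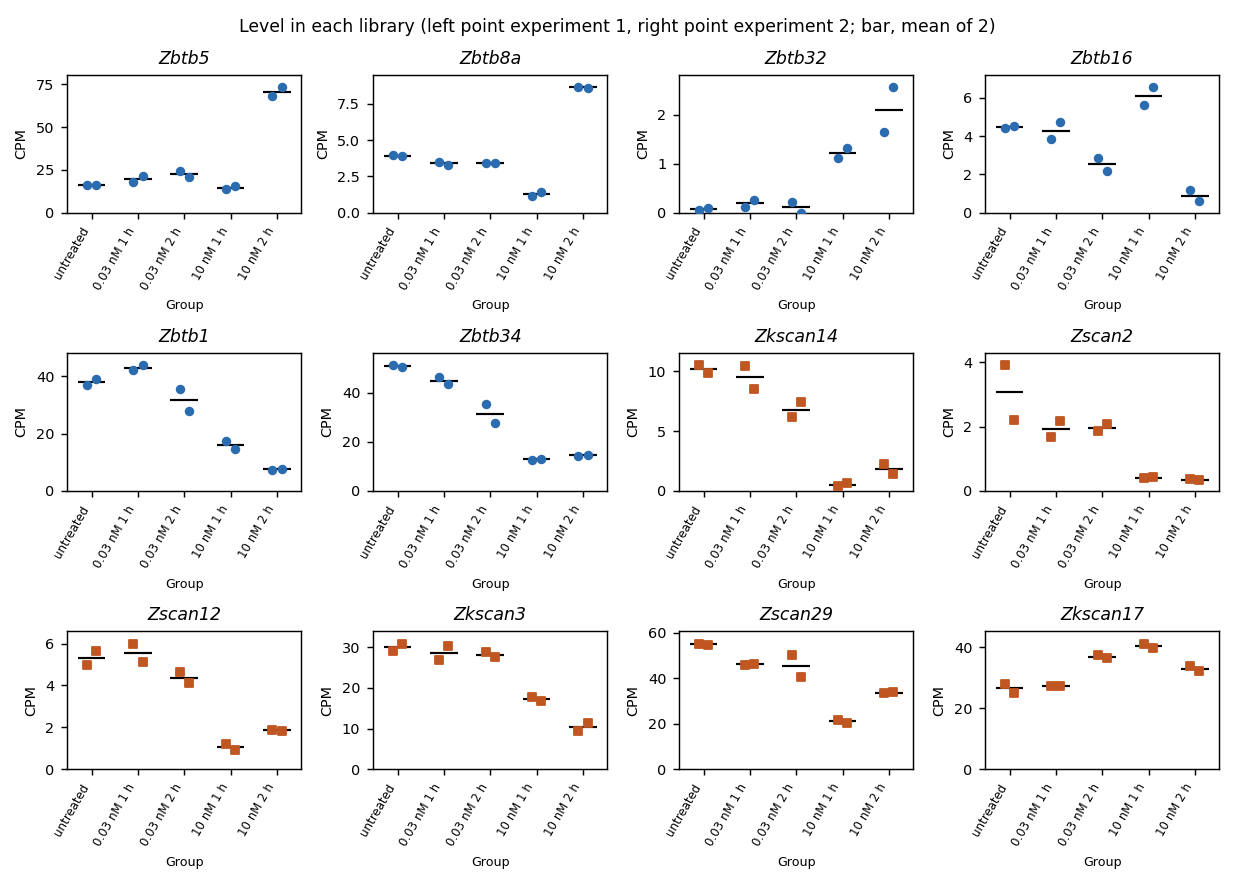
Level in CPM of 12 members in each library, by group from untreated to 10 nM 2 h, with the left point from experiment 1, the right point from experiment 2 and a bar at their mean (n = 2; BTB circles, SCAN squares). Zbtb5 and Zbtb8a peak at 10 nM 2 h, Zkscan14, Zscan12 and Zscan29 are lowest at 10 nM 1 h, and Zbtb1, Zbtb16 and Zkscan3 are lowest at 10 nM 2 h.

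Taking both times at 10 nM, 23 of 50 members were lower at each, 13 BTB and 10 SCAN, where 15.4% of all 12918 genes were. A further 7 were higher at each, 6 BTB (Zbtb7a, Zbtb11, Zbtb17, Zbtb20, Zbtb32 and Zbtb46) and Zkscan17, where 15.6% of all genes were. Zbtb32 is among these 7 and Zkscan4 among the 23. Both were tested only through the groups in which they are high, so their part in these counts is a description. Calls of opposite sign at 1 h and 2 h, made for 1.21% of all genes, were those of Zbtb8a and Zkscan6, lower and then higher, and of Zbtb2, at 0.34 ± 0.12 and then -0.68 ± 0.12. The first of the Zbtb2 calls was weak. It ended when any 1 of 7 libraries was left out (adjusted p = 0.0525 to 0.408), its estimate was 0.15 without the experiment 1 library at 10 nM 1 h, and it was -0.03 under scaling by totals.

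Which members were called at a single time depended on the scaling and on the groups fitted. With TMM, those lower at 1 h alone were Zbtb39, Zbtb42 and Zbtb49, and those lower at 2 h alone were Zbtb4, Zbtb16, Zbtb40 and Zscan21. Scaling by totals also called Zbtb39 (-0.63) and Zbtb49 (-0.96) lower at 2 h, and Zbtb4, Zbtb40 (-0.37) and Zscan21 lower at 1 h. In the main fit with TMM, 6 members were called at neither time, where 36.7% of all genes were. They were Zbtb10, Zbtb33, Zbtb37, Zbtb41, Zbtb8os and Zscan18. Of these, scaling by totals left Zbtb10 and Zbtb37 uncalled, and called Zbtb33 and Zbtb41 (-0.75 at each time) lower at both times and Zbtb8os and Zscan18 (-2.14) lower at 2 h. Some 1 h calls were gained when only the groups compared were fitted. Zbtb10 (0.59, adjusted p = 0.0276) and Zbtb16 (0.46, adjusted p = 0.0301) were then called higher. Zbtb33 (-0.34, adjusted p = 0.00535) and Zbtb41 (-0.38, adjusted p = 0.00591) were called lower.

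Among closely spaced BTB members, Zbtb1 and Zbtb25, whose starts face away from each other across 705 bases, both fell at both times, with values for Zbtb25 of -0.86 ± 0.21 and -1.57 ± 0.23. The 1 h call of Zbtb25 ended without the experiment 1 untreated library (-0.64, adjusted p = 0.0912). Zbtb6, 1248 bases from Zbtb26, changed by -0.74 ± 0.13 at 1 h and -0.35 ± 0.13 at 2 h, both called lower. Its 2 h call was lost with DESeq2 (adjusted p = 0.0644), with its size factors in edgeR (0.0527), and without either untreated library or the experiment 2 library at 10 nM 2 h (0.0726 to 0.181). Zbtb34 fell, while Zbtb43, 18963 bases away on the same strand, was called higher at 1 h (0.29 ± 0.10, adjusted p = 0.0489) and not called at 2 h (-0.08 ± 0.10). The Zbtb43 call ended with a block for experiment (adjusted p = 0.0545) and without any 1 of 8 libraries (0.0601 to 0.22), and under scaling by totals its 1 h estimate was -0.08.

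At the low dose few members were called. After 1 h at 0.03 nM, no member was called by edgeR, where 1.53% of all tested genes were called in either direction. An unadjusted p below 0.05 was found for 6 members, and the share of all genes at that level was not counted. DESeq2 called 0 as well. After 2 h at 0.03 nM, 2 members were higher, where 6.45% of all genes were, and 4 were lower, where 3.37% were. The higher members were Zbtb5 (0.49 ± 0.12, adjusted p = 0.02) and Zkscan17 (0.48 ± 0.08, adjusted p = 0.00269). The lower ones were Zbtb34 (-0.69 ± 0.11, adjusted p = 0.00131), Zbtb44 (-0.42 ± 0.11, adjusted p = 0.0339), Zbtb38 (-0.97 ± 0.25, adjusted p = 0.0476) and Zbtb16 (-0.83 ± 0.24, adjusted p = 0.0491). Of these 6 calls, 1, that of Zbtb34, held whichever single library was left out. In these 2 libraries of 0.03 nM 2 h the difference between experiments also followed gene length, as given above, and its part in these calls was not tested.

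At a matched time, most SCAN members were lower at the stronger dose. Of the BTB members, a larger share than of all genes was lower, and the share that was higher was near that of all genes. At 1 h, 10 nM gave lower levels than 0.03 nM for 20 BTB and 11 SCAN members and higher levels for 6 BTB members and 1 SCAN member, where 17.3% of all genes were lower and 18% higher. At 2 h, 15 BTB and 11 SCAN members were lower at 10 nM and 11 BTB members and 1 SCAN member higher, where 27.2% of all genes were lower and 25.6% higher. Of the BTB members, 55.6% were thus lower and 16.7% higher at 1 h, and 41.7% lower and 30.6% higher at 2 h. Median log2 differences between 10 nM and 0.03 nM were -1.49 at 1 h and -1.33 at 2 h for the SCAN family and -0.38 and -0.25 for the BTB family. Scaling by totals gives 25 lower and 4 higher BTB members at 1 h and 24 lower and 6 higher at 2 h, and 12 lower SCAN members at each time with 1 and 0 higher. With TMM scaling, the SCAN member that was higher was Zkscan17 at 1 h (0.58 ± 0.08) and Zkscan6 at 2 h (0.46 ± 0.12). The 6 higher BTB members at 1 h became 3 when either the experiment 1 library at 0.03 nM 1 h or the experiment 2 library at 10 nM 1 h was left out. The Zkscan6 call ended when the experiment 1 library at 10 nM 2 h was left out. Comparisons of 10 nM with 0.03 nM and with untreated cells share the 10 nM libraries. The tested members again include Zbtb32 and Zkscan4, which passed the filter only through the groups in which they are high.

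The step from 1 h to 2 h at 0.03 nM was called for 3 members. Zbtb17 (0.52 ± 0.11, adjusted p = 0.0149) and Zkscan17 (0.44 ± 0.08, adjusted p = 0.00873) were higher at 2 h, where 3.51% of all genes were, and Zbtb34 (-0.51 ± 0.11, adjusted p = 0.0163) was lower, where 1.59% were. None of the 3 held in every fit that leaves out 1 library. At 10 nM, 14 members were higher at 2 h than at 1 h (10 BTB and 4 SCAN) and 14 were lower (10 BTB and 4 SCAN), where 21.3% of all genes were higher and 21.5% lower. The 4 lower SCAN members became 2 when the experiment 1 library at 10 nM 1 h or the experiment 2 library at 10 nM 2 h was left out. Of the 28 members called lower at 10 nM 1 h, 10 were higher again at 2 h than at 1 h, 6 were lower still and 12 were not called between the times. The matching shares among all genes called lower at 10 nM 1 h were not counted. These 28 were picked for low levels in the 10 nM 1 h libraries, which are also the base of this step, so the choice favours a rise. The 10 that came back up were Zbtb6, Zbtb8a, Zbtb9, Zbtb39, Zbtb42, Zbtb49, Zkscan6, Zkscan14, Zscan12 and Zscan29. Zkscan14, for example, was 3.59-fold higher at 10 nM 2 h than at 10 nM 1 h (1.84 ± 0.32, adjusted p = 0.000585), and Zbtb8a 6.63-fold (2.73 ± 0.18, adjusted p = 3.54e-07).

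Whether the step from 1 h to 2 h differed between the doses was tested with an interaction term. It was called for 22 members, 12 with a more positive step at 10 nM (8 BTB and 4 SCAN) and 10 with a more negative one (7 BTB and 3 SCAN), where 10.4% and 11.6% of all genes were so called. The most positive was Zbtb8a at 2.72 ± 0.24 (adjusted p = 1.53e-05) and the most negative Zbtb16 at -1.99 ± 0.37 (adjusted p = 0.00231). The 8 more positive BTB members became 14 when the experiment 1 library at 0.03 nM 2 h was left out. The 7 more negative ones became 4 when the experiment 1 library at either 10 nM 1 h or 10 nM 2 h was left out.

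Genes of the same families under other names also moved at 10 nM. Of 9 BTB zinc finger genes without a Zbtb symbol, 6 were tested, and at 10 nM 2 were higher and 4 lower at each time, with median log2 fold changes of -0.72 at 1 h and -0.96 at 2 h. Of all genes, 18.5% were higher and 18.3% lower at 1 h, and 28.6% and 30.1% at 2 h. Scaling by totals gives 1 higher and 4 lower at 1 h and 0 higher and 5 lower at 2 h, with medians of -1.09 and -1.52. Bcl6, a repressor of germinal centre B cells and of inflammatory genes in macrophages, was higher by 1.65 ± 0.12 at 10 nM 1 h and 0.35 ± 0.12 at 10 nM 2 h, and by 1.01 ± 0.12 at 0.03 nM 2 h (adjusted p = 7.26e-07, 0.0291 and 0.000222). Scaling by totals turns its 10 nM 2 h value to -0.21, not called. Zfp238 was called higher at both times, by 0.40 ± 0.10 and 0.28 ± 0.10 at 10 nM, where scaling by totals gives 0.03 (not called) and -0.28 (called lower). Patz1, a regulator of T cell lineage genes, was lower, at -1.84 ± 0.11 and -2.83 ± 0.11 at 10 nM and -0.79 ± 0.10 at 0.03 nM 2 h (adjusted p = 5.6e-08, 1.38e-09 and 0.000278). Zfp161, Gzf1 and Hic2 were also lower at both times at 10 nM, at -1.66 and -2.08, -0.76 and -0.66, and -0.68 and -1.26.

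A list of 21 SCAN gene names other than Zkscan or Zscan symbols was also looked up. Those absent from the table may be older names of members, and 14 were in the table, of which 13 were tested. At 10 nM 1 was higher at each time, and 9 were lower at 1 h and 10 at 2 h, with median log2 fold changes of -0.93 and -0.71. At 1 h 18.3% of all genes were lower, and 30.1% at 2 h. Scaling by totals gives 11 lower and 1 higher at each time, with medians of -1.30 and -1.27. The one that rose, Zfp263, had 100.4 and 104 CPM in untreated cells, 150.5 and 179 CPM at 0.03 nM 1 h and 298 and 288 CPM at 0.03 nM 2 h. Levels were 533 and 580.5 CPM at 10 nM 1 h and 539 and 569.6 CPM at 10 nM 2 h. Every treated library was above both untreated ones, and the change was called in all 4 comparisons, at 0.69 ± 0.09 and 1.52 ± 0.09 at 0.03 nM (adjusted p = 0.00152 and 6.6e-07) and 2.45 ± 0.09 and 2.44 ± 0.09 at 10 nM (adjusted p = 1.93e-09 and 9.56e-10). Lower members included Zfp449 (-2.97 and -2.14), Zfp192 (-2.13 and -2.21), Zfp187 (-1.26 and -1.95) and Zfp287 (-2.33 and -1.77).

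Single genes for corepressors and partners of BTB and KRAB proteins were called in either direction. Of 15 corepressors and partners of BTB proteins, all tested, 6 were higher and 1 lower at 10 nM 1 h, and 6 were higher and 4 lower at 10 nM 2 h, with median log2 fold changes of 0.22 and -0.05. The 2 h counts are near the shares of all genes, 28.6% higher and 30.1% lower, and at 1 h these were 18.5% and 18.3%. Scaling by totals gives 2 higher and 4 lower at 1 h and 2 higher and 9 lower at 2 h, with medians of -0.15 and -0.61. Bcor, the corepressor named for binding BCL6, had 24 and 27.4 CPM in untreated cells, 51.5 and 58 CPM at 0.03 nM 1 h and 102 and 90.1 CPM at 0.03 nM 2 h. At the 10 nM dose, there were 188 and 196 CPM at 1 h and 279.9 and 287 CPM at 2 h. It rose with dose and time with no overlap between any 2 groups, at 1.09 ± 0.10 and 1.90 ± 0.10 at 0.03 nM and 2.90 ± 0.10 and 3.46 ± 0.10 at 10 nM (adjusted p = 7.21e-05, 2.08e-07, 7.31e-10 and 1.24e-10). Cul3, the ubiquitin ligase scaffold that binds BTB adaptors, was higher at 10 nM by 0.51 and 0.88, the first not called under scaling by totals (0.15), and Hdac5, a histone deacetylase, was lower, at -0.46 and -0.94. Of 8 KRAB corepressors, 1 was higher and 3 lower at 10 nM 1 h, and 1 was higher and 7 lower at 10 nM 2 h, with median log2 fold changes of -0.28 and -0.60. Of all genes, 18.3% were lower at 1 h and 30.1% at 2 h. Scaling by totals gives 7 lower and 1 higher at each time, with medians of -0.64 and -1.15. Atf7ip, a partner of the histone methyltransferase gene Setdb1, was lower at 10 nM 2 h (-2.09 ± 0.18), as were Setdb1 itself (-1.47 ± 0.10) and Trim28, the adaptor of KRAB proteins (-0.70 ± 0.08) (adjusted p = 1.49e-06, 1.38e-07 and 1.24e-05). The gene that was higher was Chd4, a chromatin remodeller, by 0.84 and 0.81.

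The motif letters printed above can be set beside all promoters of the table. The ETS-type letters CCGGAAG occurred in 12 of 39 BTB promoters (30.8%) and 5 of 15 SCAN promoters (33.3%), against 8.86% of all 32851 promoters. Some genes give more than 1 promoter. The NF-kB-type letters GGGNNTTTC occurred in 10.3% of BTB and 6.67% of SCAN promoters, against 4.36% of all. The AP-1 letters TGACTCA occurred in 2.56% and 6.67%, against 5.2% of all, and the CRE letters TGACGTCA in 2.56% and 13.3%, against 1.79%. The E-box CACGTG occurred in 12.8% and 20%, against 7.15%. The 3 SCAN promoters with an E-box all belong to 1 gene of 11, Zscan18, and the 5 BTB promoters belong to 4 genes of 32. The median share of G and C was 63.3% in BTB and 56.3% in SCAN promoters, against 52.7% in all, with 25 and 14 CpG dinucleotides against 7, and the part of base composition in the motif shares was not tested. By direction at 10 nM, ETS-type letters occurred in 12 of the 24 matched members that were lower and never higher and in 2 of 11 that were higher and never lower. They occurred in 0 of 3 that changed sign and in 3 of 5 that were not called. NF-kB-type letters occurred in 4 of the 24, Zbtb6, Zbtb26, Zbtb42 and Zscan12, in 0 of the 11 and in 1 of the 5 not called, Zbtb37. CRE and E-box letters read the same on both strands, and a match describes letters in this window and no binding.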

How the data were processed

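Raw read counts per gene, one column per library, were used as deposited: per the file headers each row gives a gene symbol with its mm9 exons, strand and length, and the count table holds whole-number counts that sum to 33179599 to 42167096 per library. Per the submitters' processing notes, TopHat2 (2.0.11) and featureCounts (1.4.5-p1) were among the tools, with mm9 as the build. The sources used here do not say how multi-mapping reads and strand were handled. A regularised log table by the authors was set aside.

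The counts were analysed with edgeR 4.0.16 (limma 3.58.1, R 4.3.3), with TMM scaling, its filter on low counts (cutoff 10 counts, 12918 of 23284 genes kept) and the robust quasi-likelihood fit, with 1 mean per group over all 10 libraries and 5 residual degrees of freedom. In all, 9 contrasts were tested, each adjusted by Benjamini-Hochberg over all 12918 genes at 0.05. The fit was tested on simulated data. Values after ± are standard errors of log2 fold changes. The p-values measure the spread between 2 experiments per group, which may be partly technical.

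The members, lists and alternatives were chosen with earlier results of these data known. The text gives up to 12 called members per family with the largest changes against untreated cells and the 3 highest per kb, and of each list up to 6 called genes with the smallest p. Promoter sequences come from RefSeq (GRCm38.p6), chosen for display after their matches were seen. Libraries of the same experiment number come from 1 experiment per the labels. Their deviations correlated across genes in 10 pairs of groups at -0.0306 to 0.360, above 0.1 in 7. Alternatives were DESeq2 1.42.0, DESeq2 size factors, library totals, no filter, an experiment block, only the groups compared, and leaving out each library.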

Additional observations from a re-analysis of the deposited data

Results flagged for a closer look

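Of the 22 members whose step from 1 h to 2 h differed between the doses by edgeR's interaction test, adjusted over all 12918 genes, the 12 given above with the value of every library follow. The difference is the log2 step at 10 nM minus that at 0.03 nM. Each step rests on 2 libraries per group, and the doses have no library in common.

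The difference was positive for 7 of the 12. For Zbtb8a it was 2.72 (adjusted p = 1.53e-05), from a step of 2.73 at 10 nM against 0.01 at 0.03 nM. For Zkscan14 it was 2.33 (adjusted p = 0.000925), with steps of 1.84 at 10 nM and -0.48 at 0.03 nM. Zbtb5 differed by 2.07 (adjusted p = 7.76e-06), with steps of 2.26 at 10 nM and 0.19 at 0.03 nM. Zscan12 differed by 1.15 (adjusted p = 0.0141) and Zscan29 by 0.70 (adjusted p = 0.00396). Zbtb34 differed by 0.69 (adjusted p = 0.0089), with a step of 0.17 at 10 nM against -0.51 at 0.03 nM. Zbtb7a differed by 0.45 (adjusted p = 0.0253).

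The difference was negative for the other 5. Zbtb16 differed by -1.99 (adjusted p = 0.00231), with steps of -2.75 at 10 nM and -0.76 at 0.03 nM. Zscan21 differed by -0.79 (adjusted p = 0.00316), Zkscan3 by -0.69 (adjusted p = 0.00756) and Zbtb1 by -0.66 (adjusted p = 0.0206). Zkscan17 differed by -0.74 (adjusted p = 0.000846), with a step of -0.30 at 10 nM against 0.44 at 0.03 nM.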

How the results depend on the processing

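The numbers of members called at 10 nM, between doses, between times at 10 nM and by the interaction stayed within 1.5 times of those reported under every alternative run. Leaving out 1 library gave 31 to 40 calls at 10 nM 1 h, 37 to 40 at 10 nM 2 h, 30 to 39 between doses at 1 h, 35 to 40 between doses at 2 h, 22 to 31 between times at 10 nM and 17 to 30 for the interaction. Of the 37 and 40 members called at 10 nM 1 h and 2 h, 30 and 36 were called in all 10 such fits. The 0.03 nM results moved. At 0.03 nM 1 h, leaving out 1 library gave 0 to 1 calls. At 0.03 nM 2 h it gave 1 to 11, with 2 or 1 where an untreated library was dropped (experiment 1 or experiment 2) and 11 where that of experiment 1 at 0.03 nM 2 h was dropped, and fitting only the groups compared gave 1. Between times at 0.03 nM, leaving out 1 library gave 0 to 11, DESeq2 gave 5 and fitting only the groups compared gave 0. Scaling by library totals reversed Zkscan17 at 10 nM 2 h to -0.24 and Zbtb7a at 10 nM 1 h to -0.10, as that scaling moves the median of all genes down. The same scaling also turned negative Zbtb2 (-0.03) and Zbtb43 (-0.08) at 10 nM 1 h and Zbtb11 at 10 nM 2 h, all called higher with TMM. A block for the replicate number, which marks a shared experiment, ended the call of Zbtb43 and made one of Zbtb41 (adjusted p = 0.0464) at 10 nM 1 h, made one of Zbtb6 between doses at 2 h (adjusted p = 0.0391) and ended that of Zbtb45 between times at 10 nM (adjusted p = 0.0502). With that block 36 of 37 and 40 of 40 members kept their calls at 10 nM 1 h and 2 h, and it changed no other call. Depth limits Zbtb32, Zkscan4, Zscan2 and Zscan18, which fell below 10 counts at the median library size in some groups.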
